A study of Caenorhabditis elegans with 8 samples.

Results

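The cuticlin and zona pellucida (ZP) matrix genes of Caenorhabditis elegans were compared between 2 strains held in L1 arrest, the halt of newly hatched larvae that find no food. Members were taken by gene name: every cut, cutl and noah gene, with let-653, fbn-1, dyf-7 and ram-5. This gave 41 genes of the 46422 named rows in the count table. Whole animals were used, from the wild-type strain N2 and from HBR227, whose genotype is aptf-1(gk794). Each strain had 4 libraries lettered A to D, described in the design text as biological replicates, and values are listed below in the order A to D. In both strains, eggs released with hypochlorite were kept without food in M9 buffer, and the arrested larvae were collected at 48 hours with no other treatment. The gene aptf-1 encodes an AP-2 transcription factor needed by the sleep-active neuron RIS. Whether the libraries of a strain were grown as separate cultures is not stated, and p-values cover only the spread among them, which may be technical.

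ZP proteins are secreted or membrane-bound proteins that polymerise through a shared domain on the outer face of epithelia. In the worm they form part of the cuticle, of the transient matrix that lines the epidermis and narrow tubes before each cuticle is laid down, and of the matrix that anchors sensory endings. Cuticlins were first defined as the part of the cuticle that stays insoluble after reducing agents dissolve the collagens, and they are held together by bonds between tyrosines. The genes cut-3 and cut-5 are known for the lateral ridges of the L1 cuticle, called alae, and cut-1 and cut-6 for dauer larvae, whereas cut-2 encodes a cuticlin with no ZP domain. The genes noah-1, noah-2 and fbn-1 encode large proteins of the embryonic and moulting matrix. The gene let-653 encodes a mucin-like protein of the excretory duct and vulval lumen, dyf-7 a protein that holds sensory dendrite tips in place, and ram-5 a protein needed for the shape of male tail rays. The cutl genes are named for their likeness to cuticlins, and most have no described function.

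Total counts per library lay between 43552910 and 64995146. As a check of the labels, aptf-1 was at 3.73 ± 0.463 CPM (counts scaled to a common library total, with TMM factors) in wild type and at 0.982 ± 0.176 CPM in the mutant (mean ± SD, 4 libraries each), with no overlap. The RIS neuropeptide gene flp-11, whose expression is known to need aptf-1, was at 153 ± 8.18 and 44.9 ± 1.87 CPM. HBR227 A lay apart from the other 7 libraries, at 74.3 on the first principal component of log2 CPM against -28.3 to 9.86. Results are therefore given with and without that library. In whole animals, fewer cells of a type and less RNA per cell cannot be told apart.

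The members lay on all 6 nuclear chromosomes, with 8 on I, 9 on II, 5 on III, 7 on IV, 5 on V and 7 on X (WBcel235), and were all annotated as protein-coding. Only 3 pairs had less than 20 kb between them: cutl-27 and let-653 on chromosome IV, on the same strand and 1.48 kb apart, cut-2 and cutl-1 on V (8.84 kb) and cutl-26 and cutl-28 on IV (10.4 kb). Exons of other genes overlapped 17.3% of the cutl-20 exon length on its own strand and 14.2% of the cut-1 exon length on the opposite strand. At every other member the overlap was at most 6.66%.

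Levels per exon length spanned more than 3 orders of magnitude in arrested N2 larvae. The cuticlin gene cut-2 (chromosome V, 13414949 to 13416064, plus strand) stood highest at 161 ± 18.1 CPM per kb of exon (SD, n = 4), and its counts made up 26.0% of the summed CPM of the family. The L1 alae gene cut-3 (chromosome II, 8445169 to 8446831, minus strand) followed at 44.8 ± 5.0 CPM per kb. Next were cutl-20 at 25.1 ± 1.66, cutl-26 at 18.9 ± 1.57 and cutl-23 at 16.4 ± 1.28 CPM per kb (SD, n = 4). From cut-2 to cutl-23 the N2 ranges of neighbours in the order did not overlap, while cutl-23 overlapped with cutl-15 at 15.2 ± 0.683. The matrix genes noah-2 and noah-1 were level with each other at 10.03 ± 1.5 and 9.98 ± 1.17 CPM per kb. The other L1 alae gene, cut-5, had a level of 2.18 ± 0.252 and cut-6 one of 2.71 ± 0.244 CPM per kb. The dauer gene cut-1 and the cuticlin-like gene cutl-7 were at the bottom. Raw counts of cut-1 were 3, 10, 6 and 6 in N2 and 5, 5, 4 and 0 in HBR227, and those of cutl-7 were 5, 9, 9 and 9 against 7, 6, 4 and 2. Both were below the low-count filter and were not tested, so no call was made for them. With all 8 libraries the strains overlapped in both genes, while in scaled CPM, though not in raw counts, HBR227 B to D lay below every N2 library for cutl-7, at 46.1% of the N2 mean, from at most 9 reads in a library.

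**Figure D1:**
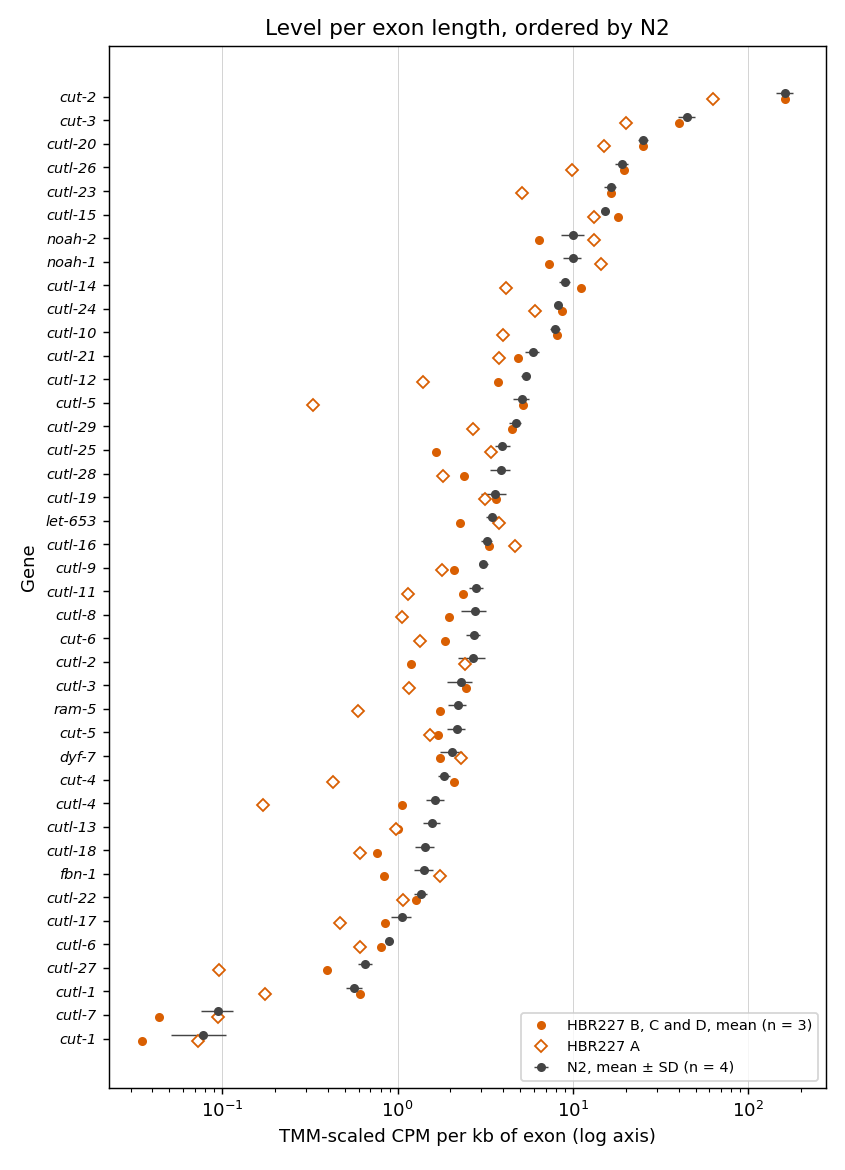
Level of each of the 41 genes per kb of exon, on a log axis in TMM-scaled CPM per kb, ordered by the N2 mean. Filled grey points with bars are the N2 mean ± SD (n = 4), filled orange points the mean of HBR227 B, C and D, and open diamonds HBR227 A; cut-2 and cut-3 lead the order, cut-1 and cutl-7 end it, and the open diamond of cutl-5 lies farthest to the left of its N2 point.

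With all 8 libraries, part of the family was lower in the mutant and no member passed as higher. Of 39 members tested, 10 fell, 0 rose and 29 did not pass an adjusted p of 0.05 (edgeR quasi-likelihood test, Benjamini-Hochberg adjustment over 17522 genes). The lower members were 25.6% of those tested, against 10.4% of all genes called lower, and 11.2% of all genes were called higher. At an unadjusted p under 0.05, 14 members were lower and 0 higher, with no count made over all genes at that threshold. limma voom called 11 lower and DESeq2 12, and both called 0 higher. Over all genes, they called 3889 and 4492 in either direction, against 3774 in edgeR. The median log2 fold change of the tested members was -0.35, against -0.003 for all genes tested, and 36 members had a value below 0. In 11 members (28.2%) every HBR227 library lay below every N2 library, as did 14.4% of all genes tested. Scaled by total counts alone, 10 members fell and 0 rose, while the median of all genes moved to -0.11 and the share of higher among all called genes was 27.4%, against 51.9%. The count of falls depended on single libraries: it was 7 without N2 A or HBR227 B, 4 without N2 B, N2 C, N2 D, HBR227 C or HBR227 D, and 18 without HBR227 A. Calls over all genes moved in the same direction. They numbered 3774 with all 8 libraries, 2423 to 3204 when a library other than HBR227 A was left out, and 7906 without HBR227 A.

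**Figure D2:**
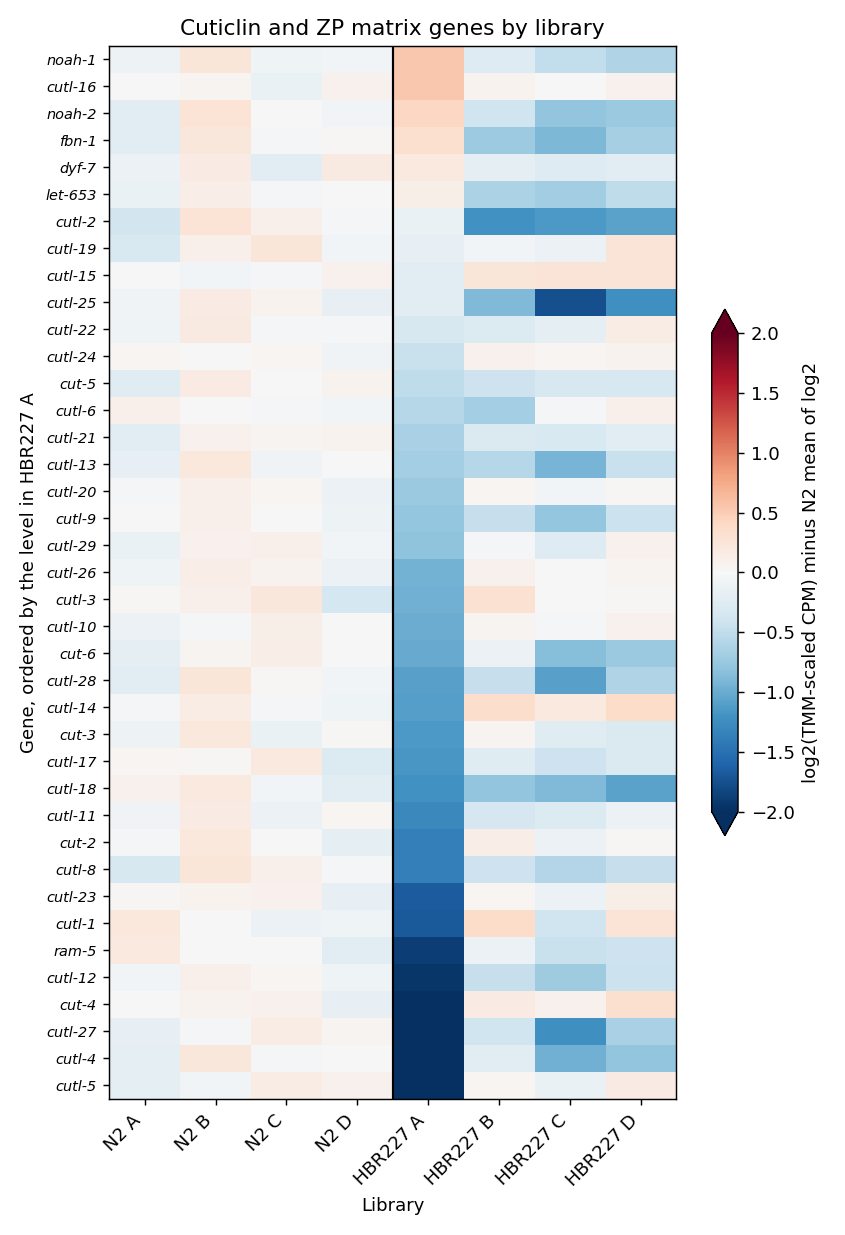
Level of the 39 tested genes in each library, as log2 of TMM-scaled CPM minus the mean of the 4 N2 values on the same scale; red is above and blue below the N2 mean, colours end at -2 and 2, and the vertical line parts the strains. Genes are ordered by their level in HBR227 A, where most are pale to dark blue and noah-1, cutl-16, noah-2 and fbn-1 are red, while HBR227 B, C and D are paler than HBR227 A in most genes.

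The cuticlin-like genes cutl-18, cutl-28, cutl-9 and cutl-13 were lower in the mutant whichever library was left out. For cutl-18 (WBGene00009830, chromosome V, 11313362 to 11316901, minus strand), CPM was 3.79, 4.10, 3.45 and 3.08 in the N2 libraries and 1.55, 2.08, 1.95 and 1.71 in the HBR227 libraries. All 4 HBR227 values lay below the lowest N2 value, and the log2 fold change was -0.98 ± 0.14 (SE; adjusted p = 0.0015), the smallest adjusted p in the family. The adjusted p stayed between 5.4e-05 and 0.0077 in the 8 fits that each left out 1 library. For cutl-28 (WBGene00018256, chromosome IV, 684497 to 688340, plus strand), CPM was 7.62, 10.5, 8.93 and 8.50 in the N2 libraries and 4.17, 6.44, 4.16 and 5.83 in the HBR227 libraries. HBR227 A and C were lowest, no library of one strain reached those of the other, and the log2 fold change was -0.78 ± 0.17 (adjusted p = 0.0090). In cutl-9 (WBGene00010893, chromosome II, 10622265 to 10625946, plus strand), CPM was 5.55, 6.01, 5.61 and 5.22 in the N2 libraries and 3.27, 4.06, 3.26 and 4.14 in the HBR227 libraries. The strains were again apart (log2 fold change -0.60 ± 0.12, adjusted p = 0.0063). For cutl-13 (WBGene00021025, chromosome I, 477582 to 482028, plus strand), CPM values were 2.23, 2.89, 2.39 and 2.52 in the N2 libraries and 1.55, 1.67, 1.31 and 1.83 in the HBR227 libraries. Here HBR227 C was the lowest and all HBR227 values were below those of N2 (log2 fold change -0.66 ± 0.15, adjusted p = 0.012).

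The other 6 falls were lost when single libraries were left out. In cutl-2 (chromosome II, 9721758 to 9724673, minus strand), CPM was 2.83, 4.42, 3.92 and 3.60 in the N2 libraries and 3.32, 1.58, 1.64 and 1.73 in the HBR227 libraries. HBR227 B to D were closely spaced below every N2 library, while HBR227 A lay inside the N2 range. The log2 fold change was -0.85 ± 0.25 (adjusted p = 0.037) with all 8 libraries and -1.17 ± 0.15 (adjusted p = 1.2e-05) without HBR227 A. In cutl-25 (chromosome III, 3042593 to 3047140, minus strand), CPM was 4.93, 5.75, 5.41 and 4.60 in the N2 libraries and 4.45, 2.78, 1.52 and 2.21 in the HBR227 libraries. HBR227 A was just under the lowest N2 library and B to D were well below, giving -0.92 ± 0.27 (adjusted p = 0.038) and, without HBR227 A, -1.24 ± 0.16 (adjusted p = 1.3e-05). Of all 39 tested members, cutl-25 and cutl-2 had the largest falls in the fit without HBR227 A. The call of cutl-2 was lost without N2 B, C or D or HBR227 B, C or D (adjusted p from 0.074 to 0.113), and that of cutl-25 without any library other than HBR227 A (adjusted p from 0.064 to 0.105).

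The dauer alae gene cut-6 (chromosome III, 10911460 to 10916665, plus strand) had CPM of 4.41, 5.20, 5.49 and 5.03 in the N2 libraries and 2.49, 4.61, 2.77 and 3.0 in the HBR227 libraries. HBR227 B lay within the N2 range and the other 3 below it, and the log2 fold change was -0.64 ± 0.19 (adjusted p = 0.036). For cut-5, the L1 and dauer alae gene (chromosome X, 10333858 to 10338200, minus strand), CPM was 2.47, 3.27, 2.96 and 3.09 in the N2 libraries and 2.07, 2.20, 2.34 and 2.35 in the HBR227 libraries. The difference was small but the strains did not overlap (-0.40 ± 0.12, adjusted p = 0.047). In cutl-8 (chromosome I, 8270304 to 8275706, plus strand), CPM was 4.93, 7.27, 6.57 and 6.0 in the N2 libraries and 2.38, 4.61, 4.10 and 4.45 in the HBR227 libraries. HBR227 A was lowest, and the log2 fold change was -0.67 ± 0.20 (adjusted p = 0.042). In cutl-21 (chromosome X, 1004337 to 1009422, plus strand), CPM was 10.3, 12.5, 12.3 and 12.4 in the N2 libraries and 7.57, 9.62, 9.55 and 10.2 in the HBR227 libraries. HBR227 A was lowest again, and the strains did not overlap (-0.36 ± 0.11, adjusted p = 0.047). Calls of cut-6 and cutl-8 were lost without N2 A, B, C or D or HBR227 C or D (adjusted p from 0.060 to 0.108 and from 0.051 to 0.143). Calls of cut-5 and cutl-21 were lost without N2 B, C or D or HBR227 B, C or D (adjusted p from 0.086 to 0.142 and from 0.059 to 0.145). With DESeq2 size factors or upper quartile scaling, cut-5 (adjusted p = 0.050 and 0.055) and cutl-21 (adjusted p = 0.053 and 0.064) were no longer called, and with upper quartile scaling neither was cutl-8 (adjusted p = 0.052). With no low-count filter, cut-5, cutl-21 and cutl-25 were not called (adjusted p = 0.103, 0.065 and 0.060).

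HBR227 A lay below HBR227 B, C and D in 27 of the 39 tested members and above them in 8, with no such count made over all genes. It was the lowest of all 8 libraries in 26 of the 39 tested members (66.7%), against 27.3% of all genes tested, and the highest in 5 (12.8%), against 29.6%. In 17 members (43.6%) its level was at most 50% of the N2 mean, as in 10.5% of all genes. Summed over the family, CPM was 542 to 638 in N2, 487 to 560.4 in HBR227 B to D and 354 in HBR227 A. Without cut-2 the sums were 401 to 466, 351 to 397 and 296. Among the N2 libraries, N2 B was the highest in 22 of the 39 tested members (56.4%), against 31.9% of all genes tested.

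The widest gap was in cutl-5 (chromosome II, 7113683 to 7115906, minus strand), with CPM of 6.51, 7.14, 8.20 and 7.81 in the N2 libraries and 0.480, 7.61, 6.70 and 8.29 in the HBR227 libraries. HBR227 A held 6.47% of the N2 mean, from a raw count of 22, while HBR227 B to D averaged 102%. The next were cutl-4 at 10.5%, cutl-27 at 14.7%, cut-4 at 23.2%, cutl-12 at 26.0% and ram-5 at 27% of the N2 mean in HBR227 A. In HBR227 B to D the same genes averaged 64.9%, 60.6%, 114%, 69.4% and 79.8% of the N2 mean. The most abundant members shared the pattern: cut-2 had CPM of 146, 172, 149 and 131 in the N2 libraries and 58.0, 163, 137 and 152 in the HBR227 libraries. HBR227 B to D were within the N2 range, and HBR227 A was far below it. For cut-3, CPM was 52.9, 65.7, 51.7 and 57.4 in the N2 libraries and 25.5, 59.1, 47.9 and 46.3 in the HBR227 libraries. HBR227 A was again far below the rest, though HBR227 C and D also lay below every N2 library. In 13 members, among them cut-2, cut-4, cutl-5 and cutl-23, HBR227 A was below the N2 mean and the mean of B to D above it. With all 8 libraries the log2 fold changes of cut-2 (-0.23 ± 0.29, adjusted p = 0.627), cut-3 (-0.35 ± 0.22, adjusted p = 0.309) and cutl-5 (-0.36 ± 0.62, adjusted p = 0.733) did not pass the test. Without HBR227 A they were 0.01 ± 0.09, -0.15 ± 0.11 and 0.02 ± 0.10 (adjusted p = 0.939, 0.286 and 0.873).

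The matrix genes noah-1, noah-2 and fbn-1 went the other way in HBR227 A, and let-653 and dyf-7 did not fall there. For noah-1 (WBGene00016422, chromosome I, 5874416 to 5878958, minus strand), CPM was 35.2, 44.5, 35.4 and 36.5 in the N2 libraries and 55.0, 31.4, 26.9 and 24.9 in the HBR227 libraries. HBR227 A was the highest of all libraries and B to D were below every N2 library. Its partner noah-2 (WBGene00009926, chromosome IV, 14091254 to 14096626, plus strand) had CPM of 21.8, 31.0, 25.5 and 24.7 in the N2 libraries and 34.0, 19.3, 14.7 and 15.3 in the HBR227 libraries. The order was the same, with HBR227 A on top and B to D at the bottom. The fibrillin-like gene fbn-1 (WBGene00022816, chromosome III, 7625386 to 7641078, plus strand) had CPM of 11.6, 15.6, 13.2 and 13.6 in the N2 libraries and 16.8, 8.14, 7.19 and 8.51 in the HBR227 libraries. HBR227 B to D stood at 58.8% of the N2 mean, and A at 124%. For let-653 (WBGene00002827, chromosome IV, 11885613 to 11891082, plus strand), CPM was 8.29, 10.02, 8.95 and 9.19 in the N2 libraries and 9.91, 5.86, 5.63 and 6.36 in the HBR227 libraries. HBR227 A lay inside the N2 range and B to D below it. The sensory matrix gene dyf-7 had CPM of 3.57, 4.33, 3.30 and 4.40 in the N2 libraries and 4.43, 3.42, 3.24 and 3.36 in the HBR227 libraries. All HBR227 values of dyf-7 were near the N2 range, and it did not pass the test with all libraries (-0.11 ± 0.15, adjusted p = 0.621) or without HBR227 A (-0.23 ± 0.12, adjusted p = 0.153).

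For noah-1, noah-2, fbn-1 and let-653 the strain comparison turned on HBR227 A. With all 8 libraries the log2 fold changes were -0.13 ± 0.24 for noah-1 (adjusted p = 0.739), -0.31 ± 0.27 for noah-2 (adjusted p = 0.458), -0.42 ± 0.26 for fbn-1 (adjusted p = 0.282) and -0.40 ± 0.17 for let-653 (adjusted p = 0.134), and none passed. Without HBR227 A the same genes fell, with log2 fold changes of -0.45 ± 0.10 for noah-1 (adjusted p = 0.0038), -0.64 ± 0.13 for noah-2 (adjusted p = 0.0029), -0.77 ± 0.10 for fbn-1 (adjusted p = 8.9e-06) and -0.62 ± 0.09 for let-653 (adjusted p = 4.0e-05). The neighbours cutl-27 and let-653 were far apart in HBR227 A, at 14.7% and 109% of the N2 mean, with let-653 inside the N2 range. They were close together in B to D, at 60.6% and 65.3%.

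**Figure D3:**
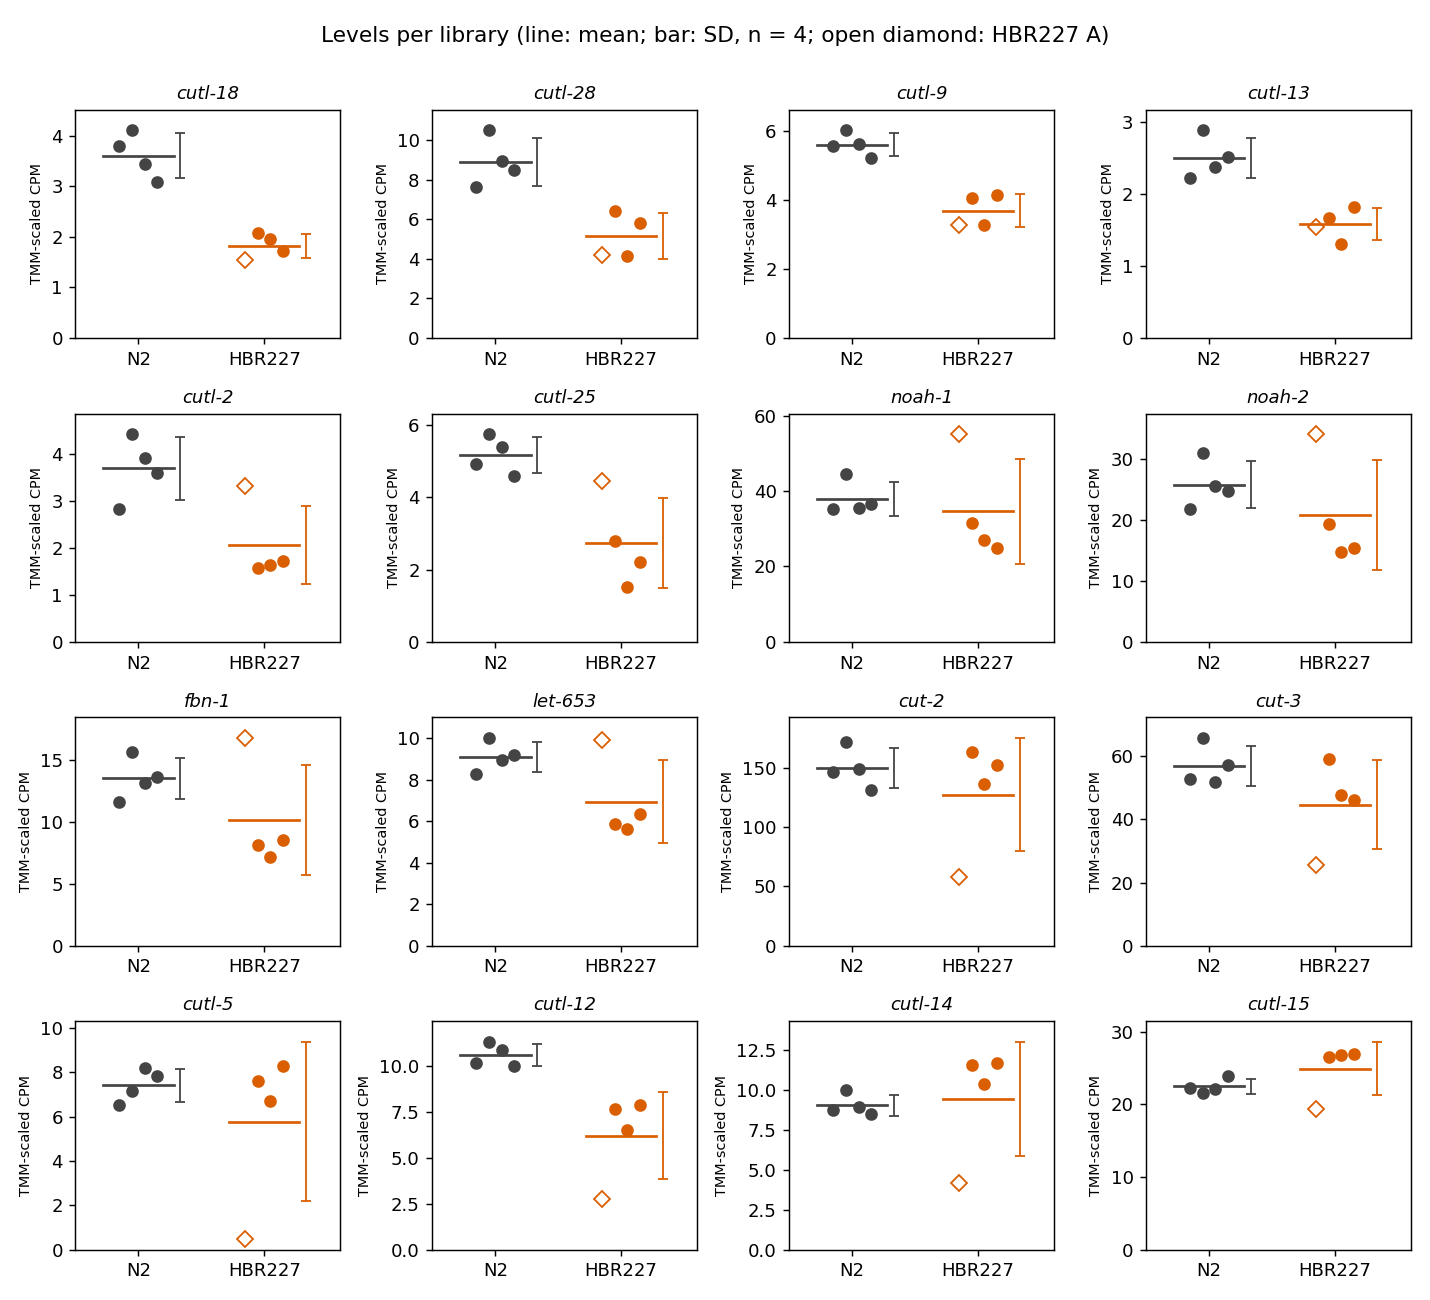
TMM-scaled CPM of 16 genes in each library of N2 (grey) and HBR227 (orange), with a line at the mean, a bar of 1 SD (n = 4) and an open diamond for HBR227 A. The first row shows genes with all HBR227 libraries below N2; HBR227 A is the highest library for noah-1, noah-2 and fbn-1, and the lowest for cut-2, cut-3, cutl-5, cutl-12, cutl-14 and cutl-15.

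Without HBR227 A, 18 of 39 members tested fell, 2 rose and 19 did not pass. That fit called 44.3% of 17850 genes, 23.3% lower and 21.0% higher, against 46.2% and 5.13% of the members. All 10 members called lower with 8 libraries were called lower again. The 8 added falls were noah-1, noah-2, fbn-1, let-653, cutl-4, cutl-12, cutl-27 and ram-5. Of these, cutl-4, cutl-12 and cutl-27 already had every HBR227 library below N2, and HBR227 A was the lowest. For cutl-12, CPM was 10.2, 11.3, 10.9 and 9.99 in the N2 libraries and 2.75, 7.67, 6.49 and 7.88 in the HBR227 libraries. HBR227 A was lowest and the strains did not overlap, and the log2 fold change moved from -0.77 ± 0.27 (adjusted p = 0.077) to -0.52 ± 0.09 (adjusted p = 1.4e-04). For cutl-4 it moved from -0.94 ± 0.43 (adjusted p = 0.155) to -0.61 ± 0.18 (adjusted p = 0.0098), and for cutl-27 from -1.003 ± 0.36 (adjusted p = 0.077) to -0.71 ± 0.18 (adjusted p = 0.0033). For the ray gene ram-5, CPM was 5.35, 4.70, 4.71 and 4.01 in the N2 libraries and 1.27, 4.28, 3.44 and 3.52 in the HBR227 libraries. HBR227 A was the lowest, and without it the gene passed narrowly (-0.31 ± 0.12, adjusted p = 0.047; -0.58 ± 0.30, adjusted p = 0.201 with all 8 libraries). The median over members was -0.25, against -0.01 for all genes. In 16 members HBR227 B to D lay below every N2 library (41.0%, against 24.8% of all genes), and in 2 above (5.13%, against 22.5%).

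The 2 rises were in cuticlin-like genes for which HBR227 A was the lowest library. For cutl-15 (WBGene00011888, chromosome II, 8942668 to 8947688, minus strand), CPM was 22.3, 21.5, 22.2 and 23.9 in the N2 libraries and 19.4, 26.5, 26.8 and 26.9 in the HBR227 libraries. HBR227 B to D were closely spaced above N2, with a log2 fold change of 0.25 ± 0.05 without HBR227 A (adjusted p = 9.6e-04) and 0.15 ± 0.11 with it (adjusted p = 0.355). For cutl-14 (WBGene00015231, chromosome I, 10628743 to 10631674, plus strand), CPM was 8.78, 9.999, 8.91 and 8.48 in the N2 libraries and 4.19, 11.6, 10.4 and 11.7 in the HBR227 libraries. HBR227 A was below 50% of the N2 mean and B to D above the N2 range (0.31 ± 0.08, adjusted p = 0.0054 without HBR227 A; 0.07 ± 0.28, adjusted p = 0.893 with it). With total counts alone as the scale and without HBR227 A, only cutl-15 stayed higher.

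**Figure D4:**
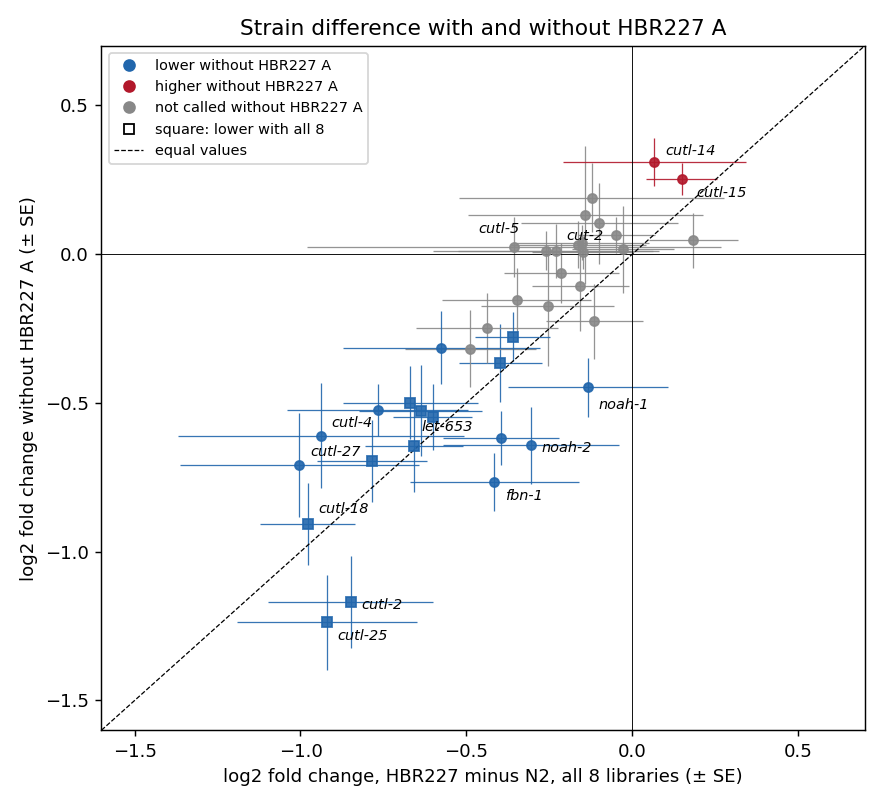
Log2 fold change (HBR227 minus N2, ± SE) of the 39 tested genes with all 8 libraries (x axis) and without HBR227 A (y axis); the dashed line marks equal values, squares mark the 10 genes lower with all 8 libraries, and colour gives the call without HBR227 A. noah-1, noah-2, fbn-1, let-653, cutl-2 and cutl-25 lie below the dashed line, and most other genes lie above it.

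The 19 members called in neither fit had log2 fold changes from -0.49 to 0.18 with all 8 libraries and from -0.32 to 0.19 without HBR227 A. Among them were the abundant cut-2, cut-3, cutl-20, cutl-26 and cutl-23. The spread of HBR227 in these abundant genes came largely from 1 library: for cutl-23 the SD was 14.1 CPM over 4 HBR227 libraries and 3.33 over B to D, against 3.14 in N2. That was not so for cutl-6, cutl-19 and cutl-22, where the SD was not smaller over B to D. For cutl-20 the strain means over N2 and HBR227 B to D were 32.2 ± 2.13 (SD, n = 4) and 32.3 ± 1.07 CPM (SD, n = 3), and its log2 fold change without HBR227 A was 0.01 ± 0.06 (adjusted p = 0.945). The cuticlin gene cut-4 had CPM of 3.30, 3.45, 3.49 and 2.93 in the N2 libraries and 0.764, 3.67, 3.48 and 4.12 in the HBR227 libraries. It was at 23.2% of the N2 mean in HBR227 A, and its log2 fold change went from -0.12 ± 0.40 (adjusted p = 0.862) to 0.19 ± 0.12 (adjusted p = 0.200) without that library. A missed threshold does not show that the strains were equal in these genes.

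Other genes of the apical matrix were compared in the same fit, in which 11.2% of all genes were called higher and 10.4% lower. Furrow collagens, which form the circumferential grooves of the cuticle, were mostly lower: 5 of 6 fell and 0 rose in edgeR, also at an unadjusted p under 0.05 and with limma voom and DESeq2. The count was 3 without N2 B or without HBR227 D, and dpy-3, dpy-9 and dpy-10 kept their calls whichever library was left out. The level of dpy-9 was low, at 0.504 CPM in N2 and 0.201 in HBR227. Its call was lost with a filter of at least 1 CPM in 4 libraries. The median log2 fold change of the 6 furrow collagens was -0.84. The lowest p-values were those of dpy-3 (-0.93 ± 0.17, adjusted p = 0.0048), dpy-9 (-1.32 ± 0.28, adjusted p = 0.0098), dpy-10 (-0.80 ± 0.18, adjusted p = 0.013) and dpy-7 (-0.89 ± 0.22, adjusted p = 0.018). Their summed CPM was 67.9 to 92.1 in N2, 34.4 to 47.6 in HBR227 B to D and 60.0 in HBR227 A, between the ranges of the others. Of 15 apical matrix genes without a ZP domain, 4 fell and 1 rose, with a median of -0.22. The count of falls was 1, that of lpr-1, without N2 A, B, C or D or HBR227 C or D. The lipocalin gene lpr-1, needed in the excretory duct, fell (-0.70 ± 0.15, adjusted p = 0.0095), as did its relative lpr-4 (-0.43 ± 0.12, adjusted p = 0.032) and dex-1, which acts with dyf-7 at dendrite tips (-0.36 ± 0.11, adjusted p = 0.038). The attachment gene mua-3 rose (0.21 ± 0.06, adjusted p = 0.032), a call lost with total counts alone and without N2 A, B or C or HBR227 B, C or D (adjusted p from 0.056 to 0.091). Without HBR227 A, 8 of the 15 fell and 4 rose, and again 5 of the 6 furrow collagens fell.

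Genes for enzymes that process or link these proteins were called higher or not called. Of 4 proprotein convertase genes, the family that includes the enzymes cutting ZP proteins free, 2 rose: kpc-1, which encodes a furin (0.27 ± 0.05, adjusted p = 0.0044), and egl-3, best known for neuropeptides (0.26 ± 0.06, adjusted p = 0.012). None of the 4 was lower in edgeR, at an unadjusted p under 0.05, in limma voom or in DESeq2 (0 in each), but 1 was lower with total counts alone. Of 7 genes for tyrosine cross-linking, the peroxidase gene mlt-7 rose (0.26 ± 0.07, adjusted p = 0.033, a call lost with total counts alone and, at adjusted p from 0.058 to 0.097, without N2 B or C or HBR227 C or D). The other 6, among them the oxidase gene bli-3, did not pass, and none of the 7 fell (0 in edgeR, limma voom and DESeq2, 1 at an unadjusted p under 0.05 and 1 with total counts alone). Of 12 epidermal regulators, lin-14, a timing factor of the first larval stage, rose (0.27 ± 0.08, adjusted p = 0.039). That call was lost with total counts alone, with upper quartile scaling and in each leave-one-out fit other than that without HBR227 A (adjusted p from 0.073 to 0.111). The repressor gene blmp-1 fell (-0.36 ± 0.08, adjusted p = 0.0084), and the other 10 did not pass. Without HBR227 A, 2 convertase genes rose and 0 fell, 3 cross-linking genes rose and 1 fell, and 2 regulators rose and 2 fell, in a fit that called 21.0% of all genes higher and 23.3% lower.

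Markers of the cells that make these matrices, and of the pharynx, also differed between libraries. In the fit with all 8 libraries, 11.2% of all genes tested were called higher and 10.4% lower. Summed CPM of 11 seam cell markers was 123 to 142 in N2, 114 to 127 in HBR227 B to D and 108 in HBR227 A, with 1 of 9 tested members higher and none lower (0 lower in edgeR, 1 at an unadjusted p under 0.05). The call of the higher marker, rnt-1, was lost with total counts alone, with no low-count filter and without N2 A, B or C or HBR227 B, C or D (adjusted p from 0.062 to 0.095). Within that list, and chosen after their values were seen, the hedgehog-related genes grd-3, grd-10 and grd-13 had 0.938, 3.01 and 2.40 CPM in HBR227 A against N2 means of 4.25, 12.6 and 14.9, whereas ceh-16 and egl-18, which specify seam cells, were at 11.3 and 60.7 against 9.47 and 60.5. The 6 markers of the epidermal syncytium summed to 186 to 193 in N2, 178 to 183 in HBR227 B to D and 229 in HBR227 A (1 higher, 2 lower of 6). The 5 excretory duct and pore markers summed to 26.5 to 30.7 in N2, 23.3 to 25.4 in HBR227 B to D and 26.0 in HBR227 A (2 lower of 5), and the 11 glia markers to 287 to 329.9 in N2, 297 to 317 in HBR227 B to D and 252 in HBR227 A (1 higher and 4 lower of 10 tested). Of these 5 glia calls, 2 were kept whichever library was left out. All 10 pharynx markers were lowest in HBR227 A, as were 27.3% of all genes tested. The pharynx markers summed to 5176 to 5483 in N2, 5832 to 6073 in HBR227 B to D and 3733 in HBR227 A. None of them was called in edgeR (1 lower at an unadjusted p under 0.05). Without HBR227 A, the counts of higher and lower markers were 1 and 1 for seam cells, 1 and 3 for the syncytium, 0 and 3 for the duct and pore, 2 and 4 for glia and 1 and 3 for the pharynx. Of all genes, 44.3% were called in that fit. The shares of seam markers (2 of 9) and pharynx markers (4 of 10) called were not above that share. Those of the syncytium, the duct and pore and glia were above it, in lists of 6, 5 and 10 tested genes. No marker on these lists was at 0 in all libraries. Some lists share genes, so their counts are not separate. The duct and pore markers lpr-1 and let-4 are also matrix genes without a ZP domain, and grl-2 is also a glia marker. The syncytium marker dpy-7 is also a furrow collagen, and elt-3 and nhr-25 are also epidermal regulators. The part that shifts in these cell types have in the values of the members was not tested.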

How the data were processed

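Whole-animal RNA-seq gene counts of 8 libraries were used as the authors deposited them: whole-number counts per gene, not normalized. Per the submitters' processing notes, Bowtie 0.12.2 and the builds WBcel235 and mm8 were named, with no role. No source used here gives the counting tool or its strand setting, so a gene and an overlapping partner may share reads. Of 46433 rows, 11 with a date for a name (0.0333% of counts) were left out. In R 4.3.3, edgeR 4.0.16 (TMM scaling, filterByExpr with a minimum count of 10, robust quasi-likelihood F test, no covariates) tested 17522 genes with Benjamini-Hochberg adjustment. The SE of a log2 fold change was its size over the square root of F. The common biological coefficient of variation was 0.152, and the script was tested on simulated data. limma 3.58.1, DESeq2 1.42.0, other scalings and filters and left-out libraries were alternatives. Positions and exon lengths came from Ensembl release 115. No pair of libraries was identical. The members and lists were chosen with earlier results of these data known. Values per library are given for members called with all 8 libraries and for members with a known role, and the other genes named singly, such as cutl-4, cutl-5, cutl-12, cutl-14, cutl-15 and cut-4, were chosen after their values were seen.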

Additional observations from a re-analysis of the deposited data

Results flagged for a closer look

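In 12 of 82 groups of 4 libraries, 1 library stood apart from the other 3 by Dixon's test, which chance passes in about 5% of groups, and 9 of the 12 were HBR227 A. HBR227 A was high in cutl-2 (3.32 CPM), cutl-16 (8.73 CPM), dyf-7 (4.43 CPM) and fbn-1 (16.8 CPM). It was low in cutl-10 (5.22 CPM), cutl-15 (19.4 CPM), cutl-20 (19.3 CPM), cutl-24 (12.2 CPM) and cutl-26 (16.2 CPM). N2 A was low in cutl-21 (10.3 CPM). N2 B was high in cutl-22 (2.38 CPM) and noah-1 (44.5 CPM). The cause was not tested.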

How the results depend on the processing

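The median log2 fold change of the members stayed below 0 under every alternative run, from -0.45 to -0.19. With all 8 libraries, 7 to 12 members fell under the other scalings, tests, filters and the replicate block. Those fits called 3065 to 4492 genes in all. At an adjusted p under 0.01, 3 members fell (1722 of all genes, against 3774). Leaving out 1 library at a time gave 4 to 18 lower members, 0 to 2 higher members and 2423 to 7906 genes in all; the upper ends came without HBR227 A. Settings chosen after seeing the data follow, each as lower members, higher members and all genes called in either direction. They were 19, 2 and 8411 with limma library quality weights. Without HBR227 A they were 17, 2 and 7906 with DESeq2 size factors, 17, 2 and 7875 with upper quartile scaling, 20, 1 and 8204 with total counts alone, 17, 2 and 7828 with limma voom, 16, 2 and 7422 with DESeq2, and 18, 2 and 8820 with the replicate block. They were 17, 2 and 7394 without both replicates A. The cause of these shifts was not tested. The letters were not treated as pairs: same-letter deviations correlated at -0.0144 to 0.142, and 2 N2 and 1 HBR227 libraries correlated best with their own letter. The replicate block alone gave 8 lower members and 3065 genes in all. It did not call cut-5 (adjusted p = 0.075), cutl-2 (adjusted p = 0.087), lin-14 or rnt-1. Low counts kept cut-1 and cutl-7 out of the test.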

Other observations

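The cuticlin-like gene cutl-16 lies 10977 bp from aptf-1 on chromosome II. Its CPM was 6.0, 6.24, 5.45 and 6.36 in the N2 libraries and 8.73, 6.33, 5.96 and 6.34 in the HBR227 libraries, in the order A to D. It was the 1 member above the N2 mean both in HBR227 A and on average in HBR227 B to D, and it did not pass the edgeR test (log2 fold change 0.18 ± 0.13, adjusted p = 0.360). Within 50 kb of aptf-1, 5 of 20 tested genes were higher and 2 lower (35.0%, against 21.5% of all genes). Within 250 kb, 23 of 105 were higher and 7 lower (28.6%). Without HBR227 A, 6 of those within 50 kb were higher and 5 lower, and within 250 kb 29 were higher and 24 lower, in a fit that called 44.3% of all genes.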
